A study of Drosophila melanogaster with 30 samples.

Results

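The dpr, DIP, beat and side genes of Drosophila melanogaster encode immunoglobulin proteins of the cell surface that neurons use to recognise each other. The members were taken by name: every gene whose name is dpr and a number, starts with DIP- or beat-, is side or starts with side-. The families and the gene lists used below were chosen with earlier results of these data known. With current names looked up through the FlyBase identifiers of the count table, 54 of its 17559 genes are members: 21 dpr, 11 DIP, 14 beat and 8 side genes. The table itself writes 20 of them under older names, such as CG34391 for DIP-delta and CG31646 for DIP-theta, and dpr for dpr1.

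Dpr proteins bind DIP proteins in selective pairs, for example dpr11 with DIP-gamma, dpr6 and dpr10 with DIP-alpha, and dpr12 with DIP-delta. Side proteins bind Beat proteins in the same way. Side, found on cells along the motor axon path, is bound by Beat-Ia on the growing motor axon. In the mushroom body, the memory centre of the fly brain built from Kenyon cells, dpr12 on Kenyon cells and DIP-delta on dopamine neurons are needed to form a zone of the gamma lobe. Most of these roles are known from wiring during development. The values below are from nuclear RNA of naive flies and of flies given a brief light treatment meant to activate neurons.

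Nuclei were pulled from homogenised, crosslinked heads with an anti-FLAG gel, and oligo-dT selected RNA from them was sequenced in 30 libraries, 3 for each of 10 groups. CsChrimson is a channel that opens under red light, so that neurons which make it can be activated by illumination. The groups were naive or activated flies of MB131, of MB131 with RNA interference (RNAi) against the histone demethylase gene Kdm4B, of MB477, of MB477 with the same RNAi, and of flies without CsChrimson. Activated flies had 5 min of light and then 10 min of rest; for the flies without CsChrimson the same label stands, so that their naive and activated groups differ by the treatment without the channel. The strain label is CS10 for 29 of the 30 libraries and 1 has none. The labels do not say which neurons MB131 and MB477 drive, which cells carry the FLAG tag, the age or sex of the flies, what line the flies without CsChrimson are, or whether the libraries of a group came from separate flies, so a p-value below sets a difference against the scatter of the libraries only, and that scatter may be purely technical.

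Totals ran from 8291599 to 14344348 counts, and the members took 0.177% to 0.305% of them. The 3 naive MB477 libraries stood apart from the others: on the first principal component of all genes tested they lay between 64.2 and 68.0, and the highest of the other 27 lay at 22.9. Every comparison with naive MB477 flies rests on them. Kdm4B itself had 2 to 26 counts in a library, and its level was not detectably lower with RNAi in any of the 4 comparisons (edgeR adjusted p from 0.285 to 0.912, n = 3 a group), so the RNAi groups are named by their labels. The tissue label is mushroom body. Markers of Kenyon cells were present in all groups, with summed levels of 3735 to 6793 CPM (counts scaled to library size) over 16 genes. Markers of photoreceptors (11930 to 28060 CPM over 15 genes), glia (2278 to 3086 CPM over 8), muscle and fat body were present in all groups too. In such bulk RNA, fewer cells of a type and less RNA per cell cannot be told apart.

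Of the 54 members, 53 passed the filter on low counts. The exception was beat-IIIa, with 0 counts in all 30 libraries; all of its exon bases are also exons of CG34106 on the same strand, and reads that fall in 2 genes may have gone uncounted. Levels per kilobase of exon, as CPM per kb, let genes be compared. The median was 15.6 for the dpr genes, 16.4 for the side genes, 9.84 for the beat genes and 4.80 for the DIP genes, against 12.0 for all genes tested. The DIP genes were thus the lowest of the 4 families, and the 5 members at the top were 4 dpr genes and 1 side gene. dpr7 was first at 57.7 CPM per kb. dpr12 was next at 47.0, dpr21 at 30.4, dpr19 at 27.5 and side-VIII at 22.4. At the bottom, after beat-IIIa, came DIP-iota at 0.439, DIP-alpha at 1.17, DIP-lambda at 2.72 and beat-Ic at 2.95. DIP-iota was at 0 counts in some libraries and up to 2.13 CPM in others, so no change of it is described. The members are long genes, with a median span of 36154.5 bp against 1701 bp for all genes of the table with an annotation entry.

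**Figure D1:**
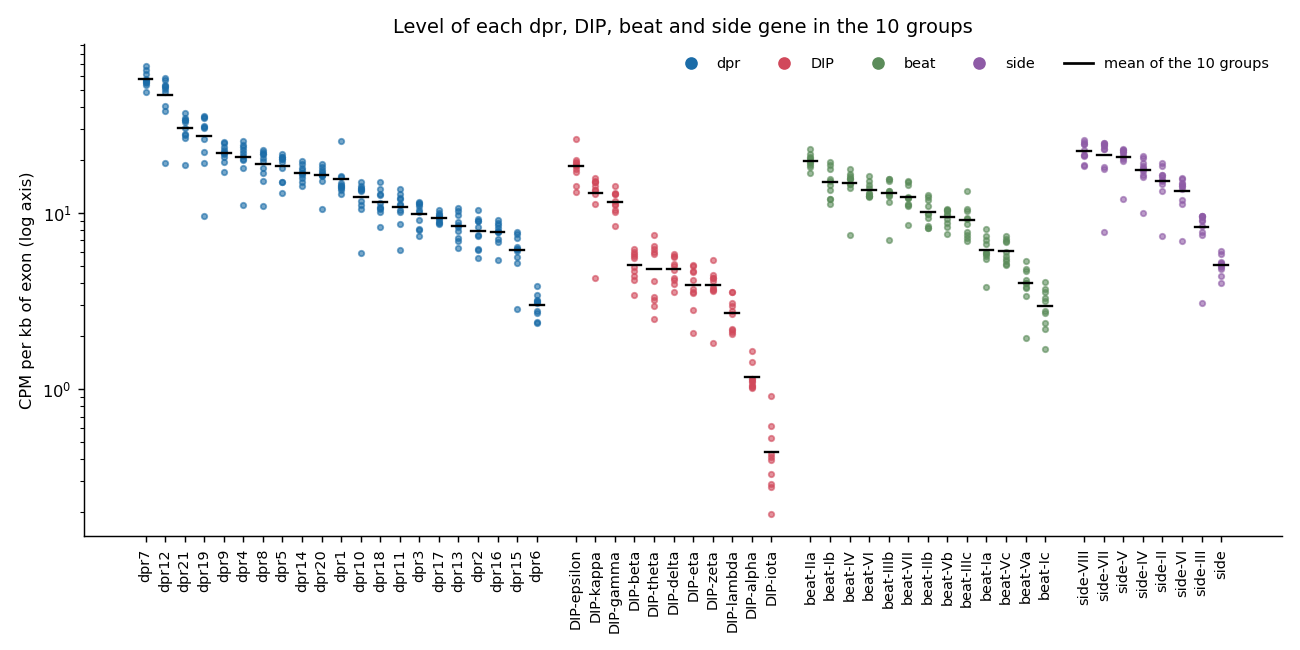
Mean level of each member in each of the 10 groups (points), in CPM per kb of exon on a log axis, with the mean of the groups as a black bar; beat-IIIa, at 0, is not drawn. The dpr and side genes sit mostly above the DIP genes, and dpr7 and dpr12 lead at 57.7 and 47.0.

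The summed level of the members was low in 1 group. It was 1783 to 1812 CPM in the 3 naive MB477 libraries and 2386 to 3066 CPM in the other 27, with no overlap. For 37 of the 53 members tested, naive MB477 was the lowest group of the 10. The other lowest groups were naive MB131 (5 members), naive flies without CsChrimson (4), and the remaining MB477 groups (7 in all: 3 activated with RNAi, 2 naive with RNAi, 2 activated). The share of all genes with naive MB477 as their lowest group was not counted, so the 37 cannot be set against it. Of all genes tested, 31.6% were lower and 29% higher in naive MB477 than in naive MB131 at an edgeR adjusted p under 0.05. Within MB131 the sum was 2557 to 2657 CPM in naive and 2861 to 2941 CPM in activated libraries. With RNAi in MB131 it was 2689 to 2756 and 2968 to 3066 CPM, and without CsChrimson 2523 to 2587 and 2917 to 3035 CPM. In these 3 backgrounds every activated library thus held more than every naive one. In MB477 with RNAi the order was turned, with 2689 to 2712 CPM in naive and 2386 to 2542 CPM in activated flies.

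**Figure D2:**
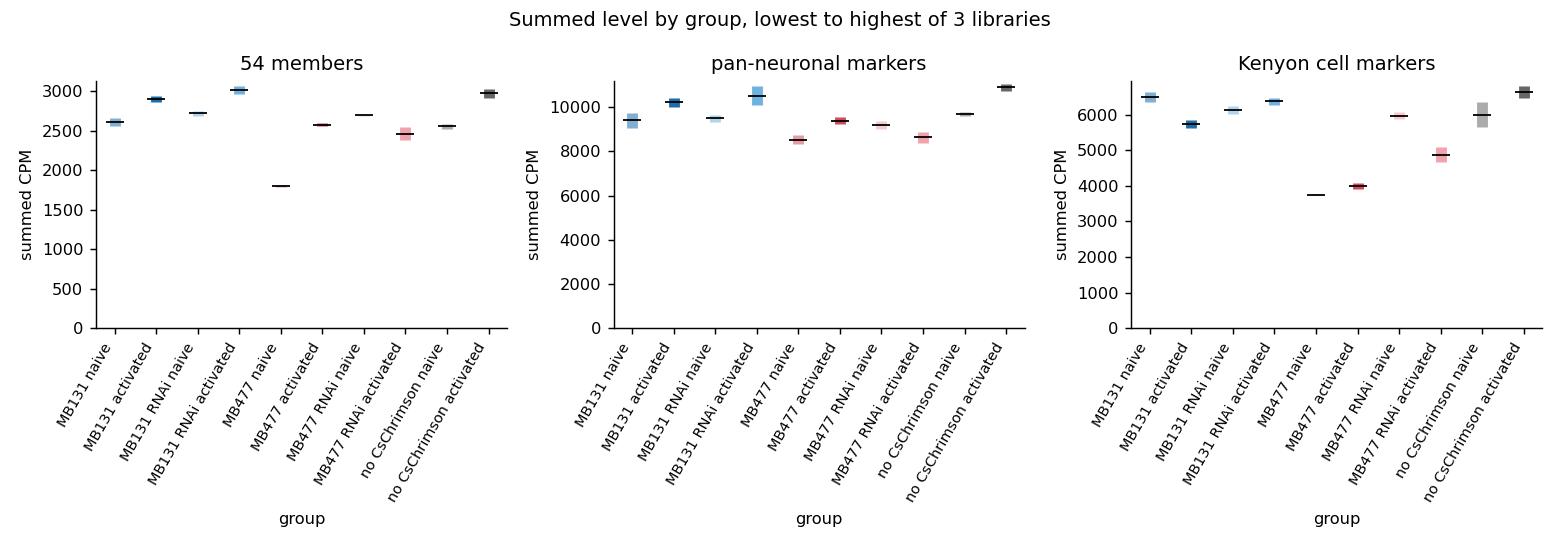
Summed CPM of the 54 members, of 14 pan-neuronal markers and of 16 Kenyon cell markers in each group; bars run from the lowest to the highest of 3 libraries, paler for naive groups, and the black tick is the middle of that range. Naive MB477 is lowest for the members (1783 to 1812 CPM), and the members are higher in activated than in naive flies except in MB477 with RNAi.

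The first question is how the members differed between activated and naive flies. In MB131, 20 of the 53 members tested rose and 0 fell at an adjusted p under 0.05 (edgeR quasi-likelihood test, adjusted over all 11457 genes tested, as for every p below). Over all genes tested, 12.7% rose and 11.8% fell. The median log2 change of the members was 0.20, against 0.00 for all genes, and 48 of the 53 were above 0. The beat genes gave 8 of 13 calls, the dpr genes 6 of 21, the DIP genes 4 of 11 and the side genes 2 of 8. The rises were modest, all under 2-fold.

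The largest rise was that of DIP-eta, which had 7.93, 8.53 and 8.88 CPM in naive and 15.2, 15.8 and 14.03 CPM in activated MB131 libraries. The groups did not overlap, and the log2 change was 0.83 ± 0.17 (SE, n = 3 a group, edgeR adjusted p = 4.11e-05). DIP-delta went from 19.7, 20.5 and 17.0 CPM to 26.5, 30.8 and 27.2 CPM, again without overlap (log2 change 0.56 ± 0.12, edgeR adjusted p = 0.000164). Its partner dpr12 stayed level, with 239.9 to 254.7 CPM in naive and 245.8 to 253.8 CPM in activated libraries (log2 change 0.02, 95% interval -0.08 to 0.11). The partners dpr11 and DIP-gamma both rose, with log2 changes of 0.56 ± 0.09 for dpr11 (edgeR adjusted p = 3.19e-07) and 0.48 ± 0.10 for DIP-gamma (4.14e-05). dpr15, another partner of DIP-gamma, rose by 0.57 ± 0.12. Its further partners dpr16 and dpr17 were not called. dpr16 had 22.5 to 23.7 CPM in naive and 25.2 to 27.6 CPM in activated libraries, and dpr17 40.3 to 44.7 and 40.6 to 45.3 CPM. dpr13 rose by 0.57, dpr3 by 0.56 and DIP-beta by 0.49 (edgeR adjusted p at most 0.000933). Among the beat genes, beat-Ic led at 0.70 ± 0.15 and went from 8.77 to 13.7 CPM in naive to 16.8 to 18.3 CPM in activated libraries. The partners beat-Ia and side differed in their calls: side rose from 49.6 to 54.5 CPM to 65.7 to 70.5 CPM, with a log2 change of 0.41 ± 0.08, and beat-Ia had a log2 change of 0.27 ± 0.14 that missed the threshold (edgeR adjusted p = 2.16e-05 and 0.15).

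The same treatment without CsChrimson gave a set of rises of about the same number. There, 24 members rose and 0 fell, where 11.1% of all genes rose and 9.98% fell, and the median log2 change was 0.24. Members were thus higher in activated flies also where the channel was absent. DIP-epsilon had 58.0, 54.1 and 56.4 CPM in naive and 84.9, 86.5 and 78.4 CPM in activated libraries without CsChrimson, the clearest rise there (log2 change 0.57 ± 0.08, edgeR adjusted p = 4.59e-09). In MB131 the same gene had 54.5 to 61.5 CPM and then 54.3 to 66.1 CPM, with overlap. DIP-lambda rose by 0.71 ± 0.23, beat-Vc by 0.54 ± 0.17 and DIP-alpha by 0.47 ± 0.18; DIP-lambda lost its call without naive replicate 1 or activated replicate 3 (edgeR adjusted p up to 0.168), beat-Vc without replicate 1 of either group (up to 0.351), and DIP-alpha without any 1 of the 6 libraries (up to 0.141). dpr12 rose from 223.3 to 236.3 CPM to 255.0 to 282.4 CPM (log2 change 0.23 ± 0.05, edgeR adjusted p = 9.5e-05). DIP-delta did not: 25.1, 25.5 and 23.4 CPM were followed by 27.5, 21.7 and 22.7 CPM.

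With Kdm4B RNAi in MB131, 15 members rose and 0 fell, against 13.8% and 13% of all genes, with a median log2 change of 0.16. Of these 15, 7 were dpr, 6 beat, 2 side and 0 DIP genes; 2 of the 11 DIP genes had an unadjusted p under 0.05. beat-Ia rose by 0.47 ± 0.13, beat-VII by 0.41 ± 0.07 and beat-IIb by 0.37 ± 0.11 (edgeR adjusted p = 0.00382, 9.99e-07 and 0.00669). beat-Ib rose by 0.32 ± 0.09 and lost its call without naive replicate 3 or activated replicate 2 (edgeR adjusted p up to 0.0977). dpr11 was close to the threshold, at 0.23 ± 0.09 (edgeR adjusted p = 0.0491). dpr12 rose by 0.20 ± 0.05, from 234.5 to 243.5 CPM to 264.9 to 284.9 CPM. DIP-delta had 22.2, 25.4 and 20.6 CPM and then 27.5, 24.5 and 30.6 CPM, which overlap, and missed the threshold (edgeR adjusted p = 0.0764).

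These 3 activation comparisons share no library. In all of them dpr11, beat-Ib and beat-VII rose, which is 5.66% of the 53 members tested where 4.91% of all genes did so. In at least 1 of them 38 members rose, 71.7% against 22% of all genes. Of these 38, 20 rose in exactly 1, which is 37.7% of the members against 11.3% of all genes. MB131 and the flies without CsChrimson had 9 risers in common, which is 9 of the 20 and 9 of the 24: dpr11, dpr13, DIP-beta, beat-IIIc, beat-Ib, beat-VI, beat-VII, beat-Vc and side. Together they are 17% of the members, and 6.11% of all genes rose in both. Without CsChrimson, the call of DIP-beta was lost in 5 of 12 alternatives, under DESeq2 and without naive replicate 1 or 3 or activated replicate 2 or 3 (adjusted p up to 0.183), and that of beat-VI without activated replicate 2 (edgeR adjusted p = 0.0846). beat-VII had 61.9, 66.9 and 73.3 CPM in naive and 91.2, 93.1 and 82.3 CPM in activated MB131 flies, and 72.0 to 77.2 CPM and 86.2 to 98.4 CPM without CsChrimson. In both backgrounds all activated libraries were above all naive ones.

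Whether the response differed with and without CsChrimson was tested by the interaction of the 2 factors. For MB131, 1 member had a more positive and 2 a more negative response than without CsChrimson, near the share of all genes (2.70% and 3.53%, together 6.23%). DIP-delta was the more positive one, with a difference of log2 changes of 0.60 ± 0.17 (edgeR adjusted p = 0.0174). It lost the call in 4 of 18 alternatives, each of them a run without 1 library (MB131 naive replicate 3, MB131 activated replicate 2, or no CsChrimson activated replicate 2 or 3), with adjusted p from 0.00571 to 0.0734 over all 18. The naive level of DIP-delta was 17.0 to 20.5 CPM in MB131 and 23.4 to 25.5 CPM without CsChrimson, so the 2 backgrounds started at different levels, and the activated levels of 26.5 to 30.8 and 21.7 to 27.5 CPM overlap. DIP-epsilon was more negative, by -0.49 ± 0.11 (edgeR adjusted p = 0.00127), and kept its call in every alternative. The difference for dpr12 was -0.21 ± 0.07 (edgeR adjusted p = 0.0415), which was lost in 11 of 18 alternatives (0.0214 to 0.153): without the filter, with only the 4 groups in the fit, and without any 1 library other than MB131 naive replicate 1 and, of the flies without CsChrimson, naive replicate 1 and activated replicate 3. The partners DIP-delta and dpr12 did not rise together in these 2 backgrounds, and neither fell. DIP-delta was higher in activated flies in MB131 with dpr12 level. Without CsChrimson, dpr12 was higher in activated flies with DIP-delta level. In MB477 both were higher in activated flies. With RNAi in MB131, dpr12 was higher in activated flies and DIP-delta missed the threshold. With RNAi in MB477, dpr12 was lower in activated flies (log2 change -0.36, edgeR adjusted p = 2.15e-09). DIP-delta overlapped there, with 18.95 to 21.47 CPM in naive and 17.8 to 25.48 CPM in activated libraries. Both interaction calls were lost in some alternatives, and a link between the changes of the 2 genes was not tested.

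**Figure D3:**
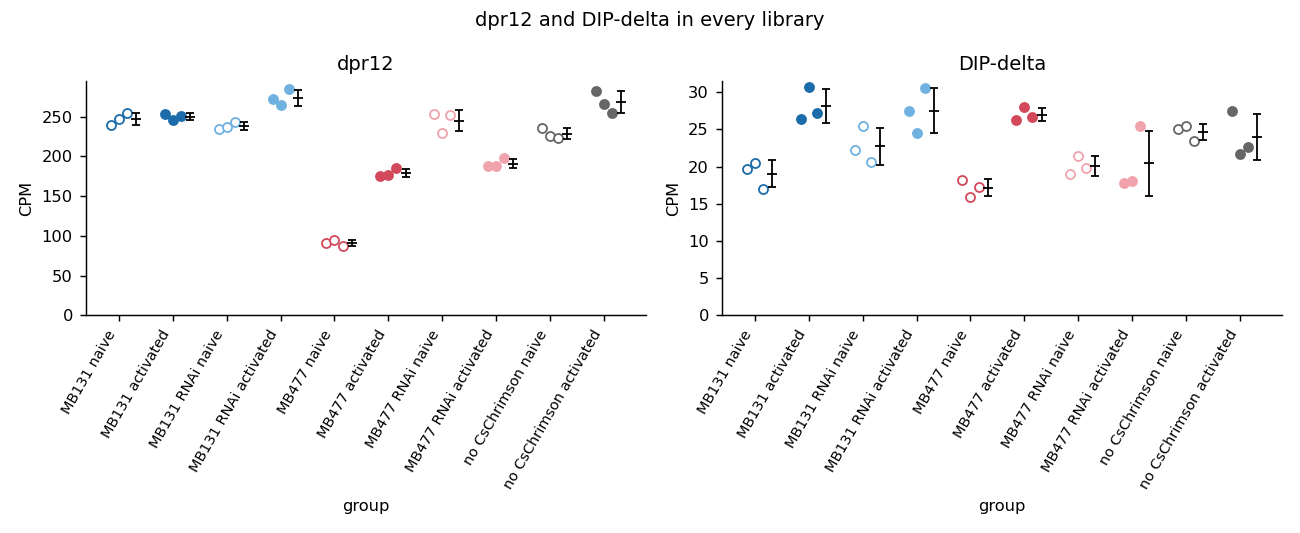
CPM of the partners dpr12 and DIP-delta in each library (open points naive, filled points activated) by group, with mean ± SD (n = 3) in black. DIP-delta is higher in activated than in naive libraries in MB131 (26.5 to 30.8 against 17.0 to 20.5 CPM) and dpr12 is at 86.9 to 95.1 CPM in naive MB477 against 175.3 CPM or more in all other libraries.

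In MB477, 42 members rose and 5 fell on activation, against 31.8% and 27.7% of all genes (59.5% together), with a median log2 change of 0.69. All 8 side genes rose, with 9 of 11 DIP, 16 of 21 dpr and 9 of 13 beat genes. DIP-zeta went from 8.25, 4.66 and 6.74 CPM to 16.6, 21.3 and 19.8 CPM, the largest rise (log2 change 1.56 ± 0.18, edgeR adjusted p = 3.36e-13). beat-Va rose by 1.45 ± 0.17, dpr15 by 1.41 ± 0.13 and DIP-kappa by 1.38 ± 0.11. side-III rose by 1.35 ± 0.09 and side-VII by 1.20 ± 0.07. dpr12 went from 90.4, 95.1 and 86.9 CPM to 175.3, 176.8 and 185.0 CPM, and DIP-delta from 16.0 to 18.3 CPM to 26.3 to 28.0 CPM; neither pair of groups overlaps. dpr1, named for the proboscis extension defect of its mutant, moved the other way, from 94.5, 93.4 and 87.9 CPM to 56.2, 58.4 and 59.7 CPM (log2 change -0.66 ± 0.08, edgeR adjusted p = 1.99e-12). DIP-alpha fell by 0.52, beat-IIIc by 0.33, beat-IIa by 0.25 and dpr14 by 0.22 on the log2 scale; the calls of beat-IIIc, beat-IIa and dpr14 were lost without MB477 naive replicate 1 (edgeR adjusted p = 0.0577 for beat-IIIc and 0.0938 for beat-IIa), and that of dpr14 also without replicate 3.

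In MB477 with Kdm4B RNAi, 1 member rose, 12 fell and 40 were not called, against 15.6% higher and 13.1% lower of all genes (28.7% together). The median log2 change of the members was -0.09, and 19 of the 53 were above 0. The riser was DIP-epsilon, from 42.2, 50.4 and 41.2 CPM to 58.3, 57.8 and 66.0 CPM (log2 change 0.45 ± 0.08, edgeR adjusted p = 4.67e-06). Of the 12 that fell, 9 were dpr and 3 side genes; of the 13 beat genes 0 were called, with 2 at an unadjusted p under 0.05. dpr4 fell by 0.52 ± 0.08 and dpr6 by 0.51 ± 0.15 on the log2 scale. side-VII had 105.5 to 108.6 CPM in naive and 75.3 to 82.5 CPM in activated libraries, and dpr12 had 229.7 to 253.2 CPM and then 187.4 to 197.7 CPM. The fall of dpr5 was lost without naive or activated replicate 1 or 2 (edgeR adjusted p up to 0.13), and that of dpr21 without naive replicate 1 or 2 or activated replicate 2 or 3 (up to 0.135).

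The interaction of RNAi and activation in MB477 called 40 members, 38 with a more negative and 2 with a more positive response under RNAi, against 26.9% and 24.7% of all genes (51.6% together). The differences of log2 changes ran from -1.71 ± 0.23 for beat-Va to 0.70 ± 0.11 for dpr1. It uses the naive MB477 libraries, so their levels enter each of these values. The interaction with CsChrimson in MB477 rests on them as well and called 36 members, 29 more positive and 7 more negative, against 26.6% and 20.2% of all genes (46.7% together). In MB131 the interaction of RNAi and activation called 0 members, where 3.26% and 2.79% of all genes (6.06% together) were called more positive and more negative. 11 members had an unadjusted p under 0.05 there, and DESeq2 called 1.

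**Figure D4:**
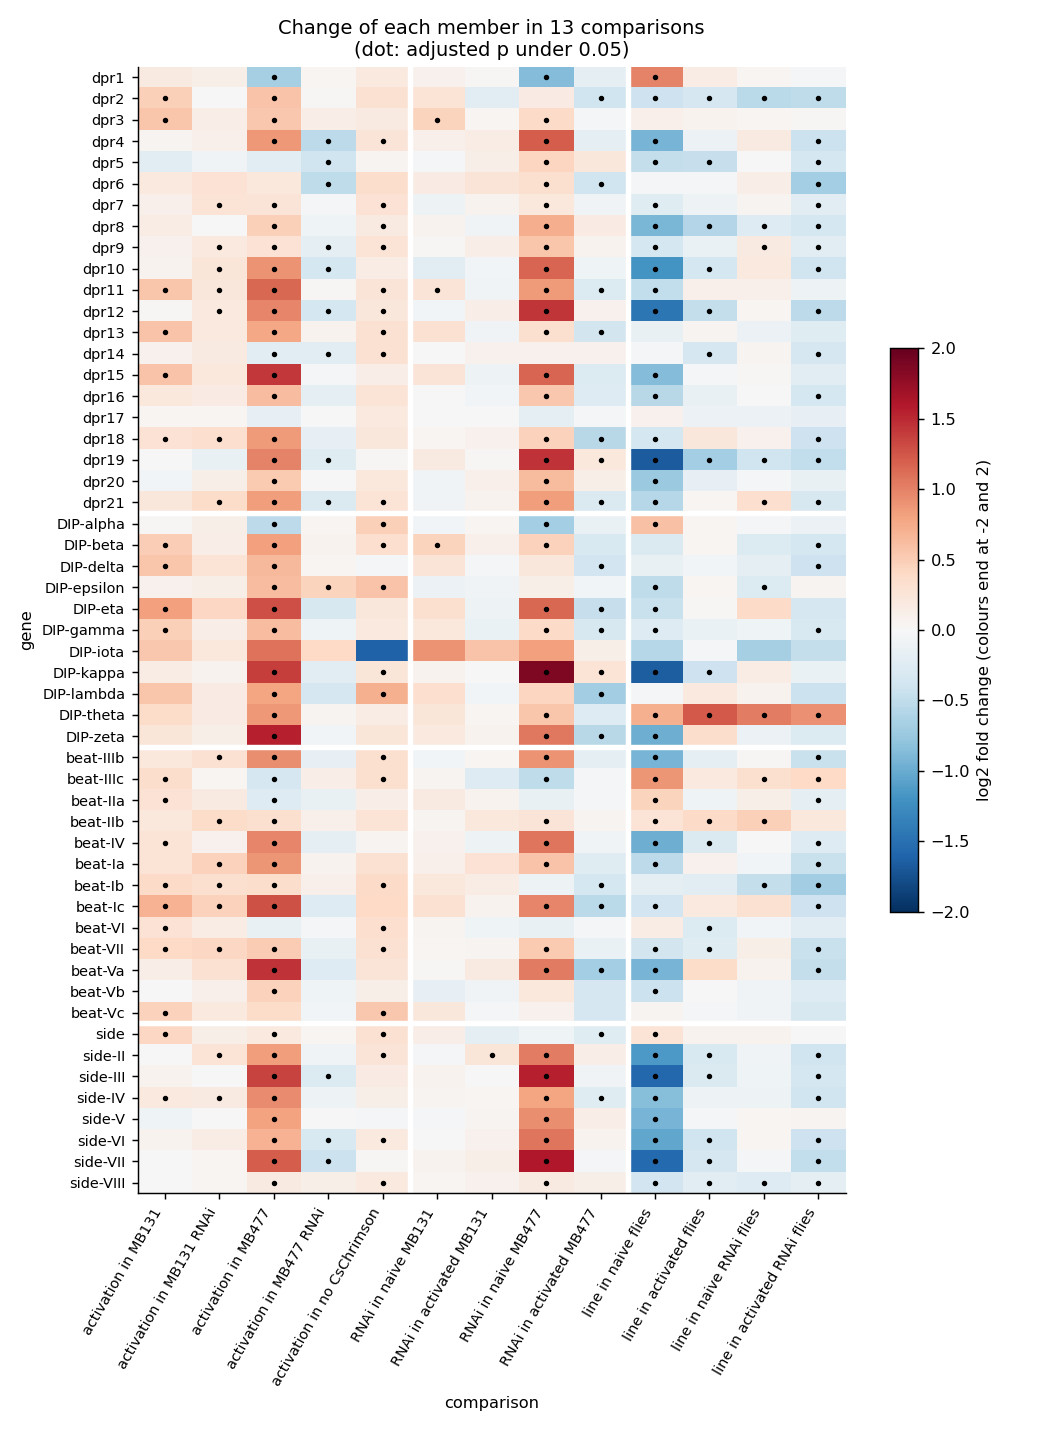
log2 fold change of each of the 53 members tested (rows, by family) in 13 comparisons (columns: activation, then RNAi against none, then MB477 against MB131), with a dot where the adjusted p was under 0.05; colours end at -2 and 2. Activation columns are mostly red with 20, 15, 42, 1 and 24 rises, and MB477 with RNAi is the exception with 12 falls.

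Few members differed between MB131 flies with and without RNAi against Kdm4B. Among naive flies 3 were higher and 0 lower, where 4.92% of all genes were higher and 6.12% lower. They were dpr3, DIP-beta and dpr11, with log2 changes of 0.45 ± 0.11, 0.45 ± 0.12 and 0.26 ± 0.09 (edgeR adjusted p = 0.00194, 0.00579 and 0.0457). Without MB131 naive replicate 2, dpr3 and DIP-beta missed the threshold (0.0735 and 0.0774) and 1 member was left, and dpr11 missed it with only the 2 groups in the fit and without any 1 of the other 5 libraries (up to 0.361). dpr3 had 24.3, 19.2 and 26.9 CPM in naive MB131 and 35.5, 31.97 and 28.8 CPM with RNAi, which do not overlap. Among activated flies 1 was higher and 0 lower (5.84% and 5.65% of all genes): side-II, with a log2 change of 0.23 ± 0.07 (edgeR adjusted p = 0.0143), lost in 4 of 12 alternatives, the runs without MB131 activated replicate 2 or 3 or MB131 RNAi activated replicate 1 or 2 (edgeR adjusted p up to 0.135). The first 3 of these left 0 members.

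In naive MB477 flies, 37 members were higher and 3 lower with RNAi than without, against 30.6% and 30.5% of all genes (61.1% together). DIP-kappa was 1.87 higher on the log2 scale, with 15.01 to 19.1 CPM without RNAi and 56.7 to 67.7 CPM with it. side-VII was 1.61 and side-III 1.55 higher, dpr19 1.45 and dpr12 1.43. dpr1, DIP-alpha and beat-IIIc were lower, by -0.87, -0.68 and -0.51. These are the same naive MB477 libraries that gave the rises on activation. In this comparison 14 Kenyon cell markers were higher and 2 lower with RNAi (median log2 change 1.28), 8 pan-neuronal markers higher and 4 lower, 11 photoreceptor markers higher and 3 lower, 7 glia markers higher and 0 lower, and 0 muscle markers higher and 9 lower. In activated MB477 flies 2 were higher and 16 lower with RNAi, against 11.9% and 10% of all genes (21.9% together). DIP-lambda had 8.19, 8.89 and 9.30 CPM without and 5.27, 5.18 and 5.84 CPM with RNAi (log2 change -0.69 ± 0.23, edgeR adjusted p = 0.0215, up to 0.07 without activated replicate 2 or 3 or RNAi activated replicate 1 or 2). beat-Va was lower by -0.67 ± 0.16, DIP-zeta by -0.55 ± 0.16, dpr18 by -0.55 ± 0.11 and DIP-delta by -0.39 ± 0.13. DIP-delta had 26.3 to 27.99 CPM without RNAi and 17.8, 18.01 and 25.48 CPM with it, and its call was not followed through the alternatives. DIP-zeta lost its call (edgeR adjusted p up to 0.133) without activated replicate 2 or RNAi activated replicate 3. Kenyon cell markers were higher for 12 and lower for 0 in the same comparison, pan-neuronal markers higher for 2 and lower for 6, and photoreceptor markers higher for 0 and lower for 9. The 18 calls became 8 without MB477 activated replicate 2 and 11 without MB477 RNAi activated replicate 3.

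The lines themselves were compared in 4 settings that share no library. DIP-theta, a DIP protein whose gene lies at 5626291 to 5658560 on the minus strand of 2L (dm6, Ensembl annotation), was higher in MB477 than in MB131 in all 4. Naive MB131 had 7.43, 7.34 and 6.79 CPM and naive MB477 12.1, 8.74 and 14.9 CPM. Activated MB131 had 8.55, 7.97 and 11.1 CPM and activated MB477 18.6, 25.3 and 21.0 CPM. With RNAi, naive flies had 7.30 to 10.1 and 13.8 to 20.3 CPM, and activated flies 8.48 to 10.7 and 15.7 to 20.8 CPM. In none of the 4 settings did the lines overlap. The log2 differences were 0.72 ± 0.18, 1.23 ± 0.16, 1.02 ± 0.17 and 0.92 ± 0.17 (edgeR adjusted p = 0.000376, 7.85e-10, 3.86e-07 and 3.78e-06). Flies without CsChrimson had 14.4 to 18.2 CPM when naive and 17.4 to 19.6 CPM when activated, a range that lies above all 12 MB131 libraries and within that of MB477; no test was run between them. Of the exon bases of DIP-theta, 12.6% also lie in the non-coding RNA gene lncRNA:CR44822.

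Lower in MB477 in all 4 settings were dpr2, dpr8, dpr19 and side-VIII. dpr19 had 73.7 to 86.4 CPM in naive MB131 and 25.1 to 26.7 CPM in naive MB477. In activated flies it had 78.5 to 85.2 and 50.4 to 53.0 CPM. With RNAi it had 90.3 to 97.7 and 69.1 to 72.6 CPM in naive, and 82.5 to 84.5 and 56.2 to 64.9 CPM in activated flies. The log2 differences were -1.66 ± 0.08, -0.68 ± 0.07, -0.40 ± 0.07 and -0.49 ± 0.07, and the lines overlapped in none of the settings. For side-VIII the differences were smaller, -0.39, -0.21, -0.25 and -0.18 (edgeR adjusted p at most 0.00831).

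By count, naive MB477 flies had 7 members higher and 34 lower than naive MB131 flies, against 29% and 31.6% of all genes (60.5% together). The activated flies had 2 higher and 16 lower (14.4% and 14.8%), the naive flies with RNAi 5 and 6 (11.2% and 11.6%, together 22.8%), and the activated flies with RNAi 2 and 31 (16.6% and 15.6%, together 32.2%). The naive flies with RNAi were thus close to the share of all genes, and the activated flies with RNAi were not. 13 members were lower in MB477 in all settings but the naive one with RNAi, or in all 4: dpr2, dpr5, dpr8, dpr10, dpr12, dpr19, beat-IV, beat-VII, side-II, side-III, side-VI, side-VII and side-VIII. They are 24.5% of the members, and 6.77% of all genes were lower in the same 3 settings. For all 4 settings the shares were 7.55% of the members and 3.54% of all genes. side-VII had log2 differences of -1.56 ± 0.07 in naive, -0.34 ± 0.07 in activated and -0.50 ± 0.07 in activated flies with RNAi. dpr12 had -1.44 ± 0.05, -0.48 ± 0.05 and -0.52 ± 0.05, and 0.04 ± 0.05 in naive flies with RNAi (edgeR adjusted p = 0.636). dpr1 stood against the trend in naive flies, with 42.4 to 48.6 CPM in MB131 and 87.9 to 94.5 CPM in MB477 (log2 difference 0.998 ± 0.08, edgeR adjusted p = 1.44e-20). In the other 3 settings dpr1 was not called.

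**Figure D5:**
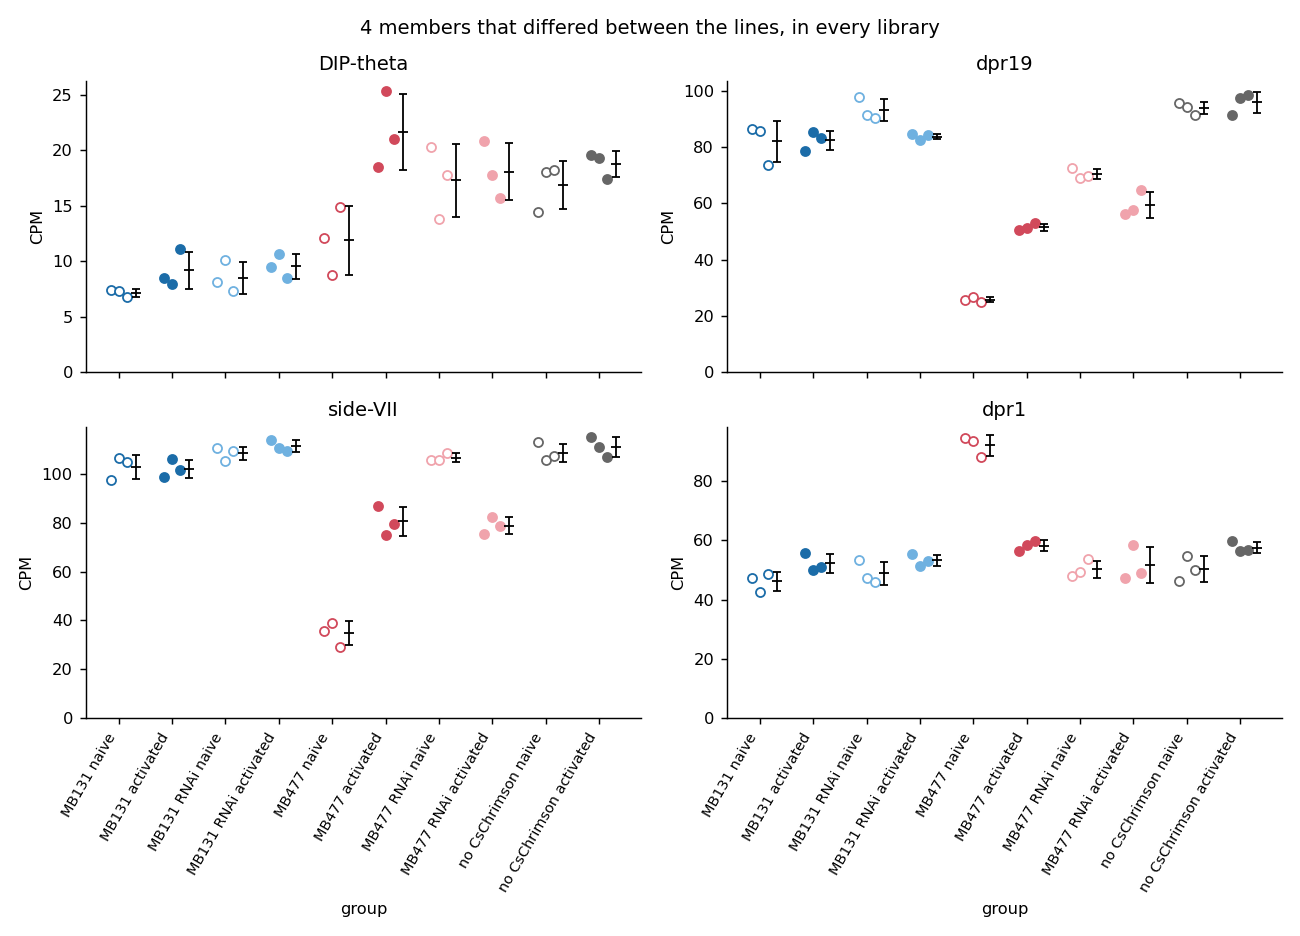
CPM of DIP-theta, dpr19, side-VII and dpr1 in each library by group (open points naive, filled activated), with mean ± SD (n = 3) in black. DIP-theta is higher and dpr19 lower in all MB477 groups than in the MB131 group of the same treatment, and dpr1 is high in naive MB477 (87.9 to 94.5 CPM).

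Other genes of wiring and adhesion were compared as a list of 56 (55 tested), among them Fas2, Nrg, the Dscam, Robo and Semaphorin genes, the teneurins and the neuroligins. On activation, 18 rose and 6 fell in MB131, 7 and 7 in MB131 with RNAi, 38 and 10 in MB477, 1 and 18 in MB477 with RNAi, and 11 and 2 without CsChrimson. The medians were 0.08, 0.06, 0.64, -0.10 and 0.07 on the log2 scale. In MB131 the 4 largest changes past the threshold were CadN2, a neuronal cadherin (0.65 ± 0.12), fred (0.63 ± 0.15), cDIP (0.58 ± 0.16) and rst, an adhesion protein of the developing eye, which fell (-0.50 ± 0.09). In MB477 they were the axon guidance receptor robo2 (2.90 ± 0.30) and its ligand sli (1.76 ± 0.08), Tl (1.43 ± 0.08) and the neuroligin Nlg4 (1.40 ± 0.14). Without CsChrimson they were the semaphorins Sema2b (0.32 ± 0.08), Sema1a (0.26 ± 0.06) and Sema1b, which fell (-0.28 ± 0.06), and the netrin NetB (0.26 ± 0.08). The edgeR adjusted p of these 12 was at most 0.00712. Of the same 55, 7 were higher and 40 lower in naive MB477 than in naive MB131, and 1 and 26 in activated flies. With RNAi these counts were 4 and 14 in naive and 4 and 31 in activated flies. With RNAi against none, 41 were higher and 6 lower in naive MB477, and 9 and 9 in activated MB477. The interaction of RNAi and activation in MB477 gave 7 more positive and 38 more negative. The lean of the members in naive MB477 was thus shared by this list. On activation, long genes as a class leaned the same way as the members. Of the 926 other genes tested that span 20000 bp or more, 24.2% rose and 14.9% fell on activation in MB131, and 25.2% and 13% without CsChrimson. The 35 members of that span gave 42.9% and 60% rises, and the 18 shorter members 27.8% and 16.7%, with 0 falls in either set. In naive flies, 22.5% of the other long genes were higher and 56.5% lower in MB477 than in MB131. The long members gave 20% and 57.1%. In activated flies the shares were 8.53% and 37.9% against 5.71% and 34.3%. For the interaction with CsChrimson in MB477 they were 48.8% and 24.8% against 51.4% and 14.3%. For these line settings and this interaction, the members were near other long genes in the larger share. In several other comparisons they were not. Between the lines in activated flies with RNAi, 44.9% of other long genes and 57.1% of long members were lower. On activation in MB477, 53.6% and 80% rose, and with RNAi in naive MB477 54.8% and 68.6% were higher. For the interaction of RNAi and activation in MB477, 51.9% and 68.6% were more negative. With RNAi in activated MB477, 23.7% of other long genes were higher and 16.2% lower, against 2.86% and 28.6% of long members.

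Several lists of cell type markers changed in the same comparisons, some in the direction of the members and some against it. Of 14 pan-neuronal markers, 7 rose and 1 fell in MB131 on activation, 8 and 0 with RNAi, and 10 and 0 without CsChrimson, with medians of 0.14, 0.11 and 0.18. In MB477 the count was 9 and 5 with a median of 0.83, and with RNAi 1 and 6 with -0.08. The 15 photoreceptor markers rose, all 15, in MB131, in MB131 with RNAi and without CsChrimson; in MB477 13 rose and 1 fell, and in MB477 with RNAi 9 rose and 0 fell. Their summed level went from 16520 to 17080 CPM to 26050 to 26390 CPM in MB131. The 16 Kenyon cell markers went the other way in MB131, with 0 rises, 9 falls and a median of -0.18. Without CsChrimson 9 rose and 2 fell, with 0.16. In MB477 11 rose and 4 fell with a median of 0.81, and with RNAi 0 rose and 13 fell with -0.37. Between the lines, of the 16 Kenyon cell markers 14 were lower and 2 higher in MB477 in naive flies, and 16 and 0 in activated flies. With RNAi, 3 were lower and 3 higher in naive flies (median 0.01), and 14 and 0 in activated flies. Their summed level was 3735 to 3768 CPM in naive MB477 libraries and 6360 to 6633 CPM in naive MB131. In naive flies 5 pan-neuronal markers were higher in MB477 and 9 lower, and 4 and 10 of the photoreceptor markers. Glia markers gave 0 and 6, optic lobe neuron markers 5 and 2, muscle markers 8 and 0, and fat body markers 6 and 0. With RNAi, activated flies gave 0 and 10 for pan-neuronal, 2 and 8 for photoreceptor and 1 and 3 for glia markers. They gave 2 and 2 for optic lobe neuron, 9 and 0 for muscle and 6 and 0 for fat body markers. On activation in MB131, MB131 with RNAi, MB477, MB477 with RNAi and without CsChrimson, of 6 fat body markers tested 6, 6, 6, 5 and 1 rose and 0, 0, 0, 0 and 2 fell. Of 9 muscle markers 0, 0, 1, 9 and 0 rose and 8, 9, 6, 0 and 7 fell. Of 8 glia markers 1, 1, 6, 1 and 2 rose and 4, 5, 1, 5 and 3 fell, and of 12 optic lobe neuron markers 3, 1, 6, 1 and 1 rose and 1, 3, 2, 1 and 3 fell. The part of these cell markers in the changes of the members was not tested.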

How the data were processed

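Nuclear RNA of 30 libraries was compared as counts per gene. The authors deposited whole-number counts, made with STAR and HTSeq on dm6 per the submitters' processing notes; strand setting, versions and treatment of multiply assigned reads were not given in the sources used. Members and gene lists were chosen with earlier results of these data known. Current names came from FlyBase identifiers (17253 of 17559 matched), and exon lengths, spans and coordinates from the Ensembl BDGP6 (dm6) annotation; the HTSeq settings bear on overlapping genes such as side-IV, 67.5% of whose exon bases lie in antisense RNA genes.

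Counts were scaled by TMM and tested with edgeR 4.0.16 (quasi-likelihood, robust, R 4.3.3) in 1 fit of a mean per group over all 30 libraries. Of the genes, 11457 passed filterByExpr (minimum count 10, total 15). P-values were Benjamini-Hochberg adjusted over these, with a threshold of 0.05. Standard errors are the log2 change over the root of F, and intervals 1.96 of them. Levels are CPM with TMM scaling. Named first were the up to 8 largest rises and falls past the threshold in each comparison. The fit was tested on simulated data.

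Alternatives were DESeq2 1.42.0, its size factors (RLE) in edgeR, no filter, a fit of the compared groups only, a replicate block, each library left out, and, chosen after seeing the data, the fit without the naive MB477 libraries and the 34 members whose names in the table fit the rule. No pairing by replicate number was detected: no comparison had all correlations of same-numbered libraries over 0.1. That does not show that such libraries were prepared apart. Counting error and replicate spread limit low genes; precision is that of 3 libraries a group.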

Additional observations from a re-analysis of the deposited data

Results flagged for a closer look

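These results are listed because the response to activation differed between backgrounds by the test of the difference itself, with edgeR's quasi-likelihood test and adjusted p under 0.05; all values are differences of log2 changes. For RNAi in MB477, 40 of 53 members were called, where 51.6% of all genes were. The most negative were beat-Va (-1.71), side-VII (-1.64) and side-III (-1.62), and the positive ones were dpr1 (0.70) and beat-IIIc (0.46). For MB131 against flies without CsChrimson, 3 of 53 members were called, near the 6.23% of all genes: DIP-delta (0.60), DIP-epsilon (-0.49) and dpr12 (-0.21). For MB477 against flies without CsChrimson, 36 were called, where 46.7% of all genes were. The most positive were DIP-zeta (1.32), dpr15 (1.28) and side-III (1.19), and the most negative DIP-alpha (-0.99), dpr1 (-0.86) and beat-IIIc (-0.65). The sets of 40 and 36 both rest on the 3 naive MB477 libraries that stood apart, and the part of those libraries in them was not tested.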

How the results depend on the processing

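Of 145 results on named members, 111 kept direction and call under every alternative run, 34 lost the call under at least 1, and 0 reversed. Most counts stayed within 1.5 times the reported one. The count for RNAi in naive MB131 was 5 under RLE, DESeq2 and without the naive MB477 libraries, and 1 to 3 with a library left out; in activated MB131 it was 2 under RLE, DESeq2, own groups and without the naive MB477 libraries, and 0 to 1 with a library left out. The interaction of RNAi and activation in MB131 gave 1 under DESeq2 and own groups and 0 to 1 with a library left out, and that of CsChrimson and activation in MB131 2 without the filter and with own groups, and 1 to 4 with a library left out. RNAi in activated MB477 gave 8 to 15 with a library left out. With the 34 members under table names, activation called 15 without CsChrimson, 28 in MB477 and 8 there under RNAi; RNAi called 2 in naive MB131, 0 in activated MB131, 24 in naive and 10 in activated MB477; the lines 25 (naive), 11 (activated), 7 (naive RNAi) and 22 (activated RNAi); the interactions 24 (RNAi, MB477), 1 (CsChrimson, MB131) and 20 (CsChrimson, MB477). Fewer members enter there by construction; elsewhere the cause was not tested.

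The replicate block gave 20, 15, 47, 13 and 23 calls in the 5 activation comparisons and 3 for RNAi in naive MB131, and changed no count by over 1.5 times. TMM and RLE moved the median of all genes by at most 0.0146 (log2). Depth limits DIP-iota and Kdm4B.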
